A study of Mus musculus with 2 samples.

Results

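MiR-128, miR-129, miR-138 and miR-218 are neuron-enriched microRNAs (miRNAs), and in the mouse each is made from 2 genes on different chromosomes. The 8 genes described here (Mir128-1, Mir128-2, Mir129-1, Mir129-2, Mir138-1, Mir138-2, Mir218-1 and Mir218-2) were chosen by their names in the GENCODE M21 annotation, out of 2202 annotated miRNA genes. Their counts come from microRNA sequencing of total RNA, in a size range under 30 bases, from tissue labelled layer of hippocampus. The 2 libraries, biological replicates 1 and 2 of 1 group, were made from male B6CASTF1/J mice aged 25 days. This strain is the F1 cross of C57BL/6J with CAST/EiJ. No treatment, engineered allele or other group was included. Each library has its own biosample, but both name 1 donor entry, and the labels do not say that they came from separate animals. Errors and p-values therefore measure only how these 2 samples differ, which may be technical. Replicate 1 held 5183641 reads assigned to miRNA genes and replicate 2 held 5871233. Levels are given as counts per 1000000 gene-assigned reads (CPM). They are not divided by gene length, since a small RNA read can span a whole mature miRNA. Reads that aligned to several places are not in them, so they describe reads assigned to 1 gene and not mature miRNAs.

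A miRNA gene is transcribed into a long primary transcript, from which a hairpin and then a short duplex are cut. 1 strand of the duplex, the mature miRNA, guides the silencing complex to messenger RNAs that pair with its seed (bases 2 to 8), while the opposite arm of the hairpin is often less abundant. MiR-128 is known as a brain-enriched regulator of neuronal excitability, miR-138 as a dendritic miRNA that restrains the growth of dendritic spines, miR-129 as a regulator of excitability and synaptic strength, and miR-218 as a miRNA of motor neurons that is also made in forebrain neurons.

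The 8 genes lie on different kinds of host. Mir128-1 (ENSMUSG00000065520.2) is on the plus strand of chromosome 1 (mm10, 128202361 to 128202430), in an intron of R3hdm1, which encodes a protein with an R3H nucleic acid binding domain. Mir128-2 (ENSMUSG00000065441.2) is on the minus strand of chromosome 9 (112118636 to 112118711), in an intron of Arpp21, the gene of a cyclic AMP-regulated phosphoprotein of the brain. Mir218-1 (ENSMUSG00000065603.1; chromosome 5, 48223942 to 48224051, plus strand) and Mir218-2 (ENSMUSG00000065583.1; chromosome 11, 35616816 to 35616925, plus strand) each lie in intron 14 of the longest annotated transcript that spans them. Their hosts, Slit2 and Slit3, encode secreted axon guidance ligands. The other 4 genes have noncoding hosts. Mir129-1 (ENSMUSG00000065469.1; chromosome 6, 29022619 to 29022691, plus strand) is exonic in the lincRNA Gm3294, and Mir129-2 (ENSMUSG00000065511.1; chromosome 2, 94241364 to 94241453, minus strand) is intronic in the lincRNA Mir670hg. Mir138-1 (ENSMUSG00000065414.1; chromosome 9, 122682876 to 122682974, plus strand) is exonic in the transcribed pseudogene Gm47135, and Mir138-2 (ENSMUSG00000065512.3; chromosome 8, 94324311 to 94324381, plus strand) is exonic in the lincRNA C78859. Thus both loci of miR-128 and miR-218 are intronic in protein-coding genes and both loci of miR-138 are exonic in noncoding ones, whereas the loci of miR-129 differ in this respect.

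RefSeq (GRCm38.p6, the same assembly as mm10) lists 11 mature sequences for the 8 genes. Of these, 4 are listed for both loci of a miRNA and 7 for 1 locus. The 4 shared sequences, with the seed in capitals, are shown because neither locus can be told from the other by them:
miR-128-3p: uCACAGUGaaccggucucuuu
miR-129-5p: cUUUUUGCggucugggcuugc
miR-138-5p: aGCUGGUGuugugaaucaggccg
miR-218-5p: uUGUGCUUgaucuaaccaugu
The 4 seeds differ from each other. Each of these sequences occurs, in sense, in 2 annotated miRNA genes, which are its own 2 loci. The sequences of the opposite arms, listed for 1 locus each, are the following:
miR-128-1-5p: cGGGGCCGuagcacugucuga
miR-128-2-5p: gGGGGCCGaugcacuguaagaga
miR-129-2-3p: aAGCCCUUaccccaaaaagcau
miR-138-1-3p: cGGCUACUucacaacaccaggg
miR-138-2-3p: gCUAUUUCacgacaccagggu
miR-218-1-3p: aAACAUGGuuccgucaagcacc
miR-218-2-3p: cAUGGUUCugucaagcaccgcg
Each of the 7 occurs in 1 annotated miRNA gene. The 5p arms of miR-128 share their seed although they differ elsewhere, while the opposite arms of miR-138 and of miR-218 each have a seed of their own. Set without gaps against the hairpin of the partner locus, miR-128-1-5p differs at 5 of its 21 bases (C1G, U9A, A10U, C18A and U19A, counted from its 5′ end, the arm's base first). MiR-138-1-3p differs from Mir138-2 at 2 of 22 bases (C7U and A13G), and miR-218-1-3p from Mir218-2 at 2 of 22 (A1G and C12U). MiR-129-2-3p differs from Mir129-1 at 1 of 22 (C20U), the fewest of the 4 miRNAs.

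The hairpins show where the partner loci can be told apart. The longest stretch that both loci of a miRNA share is printed in capitals:
Mir128-1: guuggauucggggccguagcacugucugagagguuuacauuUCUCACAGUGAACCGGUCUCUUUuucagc
Mir128-2: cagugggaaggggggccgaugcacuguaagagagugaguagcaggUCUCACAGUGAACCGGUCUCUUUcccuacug
Mir129-1: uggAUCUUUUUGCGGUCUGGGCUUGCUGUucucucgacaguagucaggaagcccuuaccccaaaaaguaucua
Mir129-2: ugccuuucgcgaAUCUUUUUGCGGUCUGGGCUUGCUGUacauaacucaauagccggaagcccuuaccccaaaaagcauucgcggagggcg
Mir138-1: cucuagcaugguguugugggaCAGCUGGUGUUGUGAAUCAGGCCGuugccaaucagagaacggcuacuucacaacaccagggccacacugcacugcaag
Mir138-2: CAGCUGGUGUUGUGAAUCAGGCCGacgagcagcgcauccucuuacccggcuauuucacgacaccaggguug
Mir218-1: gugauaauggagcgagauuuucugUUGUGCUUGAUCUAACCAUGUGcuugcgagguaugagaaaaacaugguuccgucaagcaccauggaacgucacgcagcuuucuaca
Mir218-2: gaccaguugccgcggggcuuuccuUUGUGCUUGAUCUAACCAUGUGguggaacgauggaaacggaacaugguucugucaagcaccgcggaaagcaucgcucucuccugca
The shared stretch was 23 bases for miR-128, 26 for miR-129, 24 for miR-138 and 22 for miR-218, and in each it held the whole shared mature sequence. It ended at the last base of the mature sequence in miR-128 and miR-138, 1 base past it in miR-218 and 3 bases past it in miR-129. The first base past the stretch, counted from the 5′ end of the mature sequence and with locus 1 first, was U22C for miR-128, U24A for miR-138, C23G for miR-218 and U25A for miR-129. Of the windows of 22 bases in each hairpin, 2 of 49 in Mir128-1, 5 of 52 in Mir129-1, 3 of 78 in Mir138-1 and 1 of 89 in Mir218-1 occurred in the partner locus. Reads that aligned to several places were kept out of the gene counts, so the counts below come from reads that were assigned to 1 locus, and the share of each miRNA's reads that this left out is not given by the tables.

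**Figure D1:**
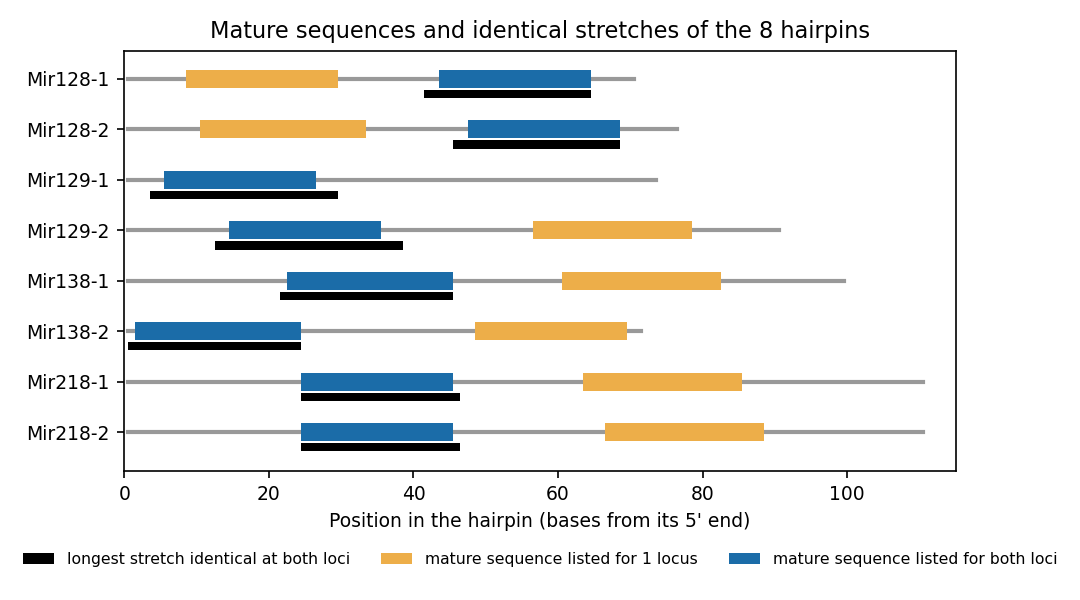
Map of the 8 hairpins, with the position in bases from the 5′ end on the x axis and 1 hairpin per line. Blue boxes are mature sequences listed for both loci, yellow boxes those listed for 1 locus, and the black bar is the longest identical stretch. The shared mature sequence is on the 3p arm in miR-128 and on the 5p arm in the other 3 miRNAs, and the identical stretch runs at most 3 bases past its 3′ end.

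By reads assigned to 1 locus, miR-138 and miR-128 had the highest sums of the 4 miRNAs, and miR-218 the lowest. Reads that aligned to several places are left out, so this order does not give the levels of the miRNAs themselves. With both loci summed, miR-138 had 9835 CPM in replicate 1 and 7087 CPM in replicate 2, and miR-128 had 7978 and 7705 CPM. The order of these miRNAs was opposite in the 2 libraries, and their gap of 619 ± 1750 CPM (SD, n = 2) was smaller than its spread. MiR-129 had 1023 and 859 CPM and lay below miR-128 by 6900 ± 77.5 CPM. MiR-218 had 255 and 195 CPM, which was below miR-129 by 716 ± 73.8 CPM. The 8 genes together took 1.91% of the gene-assigned reads in replicate 1 and 1.58% in replicate 2.

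Among the miR-128 genes, Mir128-1 had 33077 and 36443 counts in replicates 1 and 2, or 6381 and 6207 CPM. Mir128-2 had 8280 and 8794 counts, or 1597 and 1498 CPM. In both libraries the R3hdm1 locus lay above the Arpp21 locus, and the 4 values did not overlap between the loci. The means were 6294 ± 123 CPM for Mir128-1 and 1548 ± 70.4 CPM for Mir128-2 (SD, n = 2). The SD was 1.95% of the mean of Mir128-1 and 4.55% of that of Mir128-2, the smallest of the 8 genes, and Mir128-1 ranked at 30 and 31 of all miRNA genes in the 2 libraries.

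Among the miR-138 genes, Mir138-1 had 34730 and 29425 counts, or 6700 and 5012 CPM. Mir138-2 had 16249 and 12182 counts, or 3135 and 2075 CPM. Both loci were higher in replicate 1, and the lower value of Mir138-1 was above the higher value of Mir138-2. The means were 5856 ± 1194 CPM and 2605 ± 749 CPM (SD, n = 2), with ranks by mean of 34 and 60 among 2202 genes. The SD of Mir138-2 was 28.8% of its mean, the widest of the 8 genes.

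Among the miR-129 genes the locus named -2 was the higher one. Mir129-2 had 4100 and 4116 counts, or 791 and 701 CPM, with a mean of 746 ± 63.6 CPM (SD, n = 2). Mir129-1 had 1205 and 930 counts, or 232 and 158 CPM, with a mean of 195 ± 52.4 CPM. The 2 loci did not overlap, and Mir129-1 differed more between the libraries (SD 26.8% of its mean) than Mir129-2 (8.52%).

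MiR-218 had the lowest locus of all. Mir218-1, in Slit2, had 112 and 152 counts, or 21.6 CPM (exact 95% Poisson interval 17.8 to 26.0) and 25.9 CPM (21.9 to 30.3). Mir218-2, in Slit3, had 1209 and 994 counts, or 233 and 169 CPM. The means were 23.7 ± 3.03 CPM and 201 ± 45.2 CPM (SD, n = 2). Mir218-1 ranked at 267 by mean, and each of the 8 genes reached 10 counts in either library, as did 445 of the 2202 genes. The intervals here and below cover counting error only, since reads without molecular identifiers are not independent molecules.

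From high to low by mean the order was Mir128-1, Mir138-1, Mir138-2, Mir128-2, Mir129-2, Mir218-2, Mir129-1 and Mir218-1. Of the 7 pairs of neighbours, 5 had ranges that did not overlap between the libraries. Mir128-1 and Mir138-1 changed places, with Mir138-1 higher by 319 CPM in replicate 1 and Mir128-1 higher by 1195 CPM in replicate 2. Mir218-2 and Mir129-1 kept their order but differed by only 0.772 and 10.9 CPM, with overlapping ranges. The median level of the 8 genes was 1147 CPM, beside 51.2 CPM over the 445 detected genes.

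**Figure D2:**
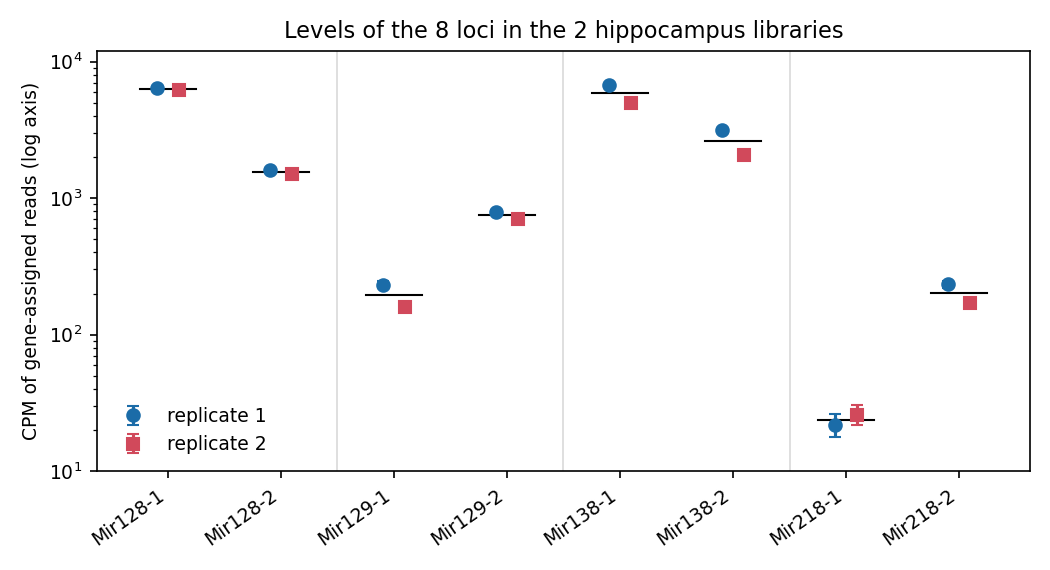
Level of each locus in CPM on a log axis. Circles are replicate 1, squares replicate 2, bars their exact 95% Poisson intervals (mostly smaller than the symbols), and the black line is the mean. The 4 miRNAs are separated by grey lines, and within each the 2 loci do not overlap.

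How were the assigned reads split between the 2 loci of each miRNA? In miR-128 and miR-138 the locus named -1 held most of them, and in miR-129 and miR-218 the locus named -2. Of the 41357 and 45237 reads assigned to the miR-128 loci, Mir128-1 held 79.98% (exact Clopper-Pearson 95% interval 79.6 to 80.4) in replicate 1 and 80.6% (80.2 to 80.9) in replicate 2. It was 3.99-fold and 4.14-fold above Mir128-2. Of the 50979 and 41607 reads assigned to the miR-138 loci, Mir138-1 held 68.1% (67.7 to 68.5) and 70.7% (70.3 to 71.2). This was 2.14-fold and 2.42-fold above Mir138-2. Both thus leaned to the same locus by a similar factor in each library.

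In miR-129, Mir129-2 held 77.3% (exact Clopper-Pearson 95% interval 76.1 to 78.4) of 5305 assigned reads in replicate 1 and 81.6% (80.5 to 82.6) of 5046 in replicate 2. This was 3.40-fold and 4.43-fold more than Mir129-1. In miR-218, Mir218-2 held 91.5% (89.9 to 93.0) of 1321 assigned reads and 86.7% (84.6 to 88.6) of 1146, or 10.8-fold and 6.54-fold more than Mir218-1. The split of miR-218 was the most uneven of the 4 in both libraries. Averaged over the libraries, the locus named -1 held 80.3% ± 0.411 of the assigned reads in miR-128 and 69.4% ± 1.84 in miR-138. In miR-129 it held 20.6% ± 3.03 and in miR-218 10.9% ± 3.38 (SD, n = 2). The log2 ratio of locus 1 over locus 2 was 2.02 ± 0.04, 1.18 ± 0.12, -1.96 ± 0.27 and -3.07 ± 0.51 in the same order. Each ratio was larger than its spread. With 2 libraries no permutation test of these ratios could reach 0.05, and none was run. The scaling of the library cancels in these shares, but reads that aligned to several places are missing from both loci. Reads within an identical stretch match both loci, so the shares rest on reads that reach outside such stretches. In miR-129 a further identical stretch lies on the 3p arm and covers the first 19 of the 22 bases of miR-129-2-3p. Whether such reads arise at the same rate from both loci was not tested.

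**Figure D3:**
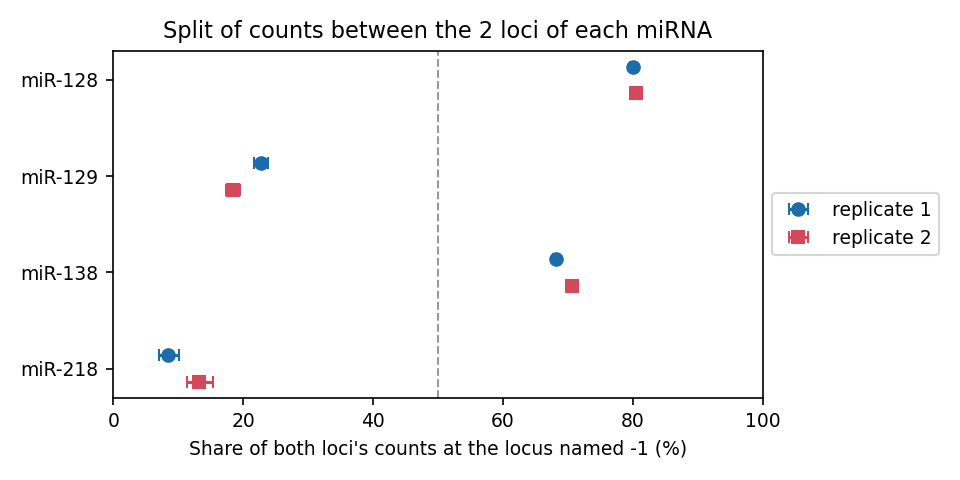
Share of the reads assigned to either locus that fell on the locus named -1, in percent, for each miRNA (y axis). Circles are replicate 1, squares replicate 2, bars exact 95% Clopper-Pearson intervals, and the dashed line marks an even split. The points of miR-128 and miR-138 lie between 68.1% and 80.6%, those of miR-129 and miR-218 between 8.48% and 22.7%.

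Did the split itself differ between the libraries? The share of the locus named -1 moved by 2.60 percentage points in miR-138, by 4.79 points in miR-218 and by -4.28 points in miR-129 from replicate 1 to replicate 2. These shifts passed a 2-sided Fisher exact test of the read counts, adjusted by the Benjamini-Hochberg method over all 24 gene pairs tested (adjusted p = 1.98e-16, 0.00035 and 3.70e-07). The odds of locus 1 in replicate 2 over replicate 1 were 1.13 (95% interval 1.10 to 1.16), 1.65 (1.27 to 2.16) and 0.769 (0.698 to 0.847). For miR-128 the shift was 0.581 points, with odds of 1.04 (1.00 to 1.07), and did not pass (adjusted p = 0.0546 in the Fisher exact test). It passed with a minimum of 100 counts per pair, where 21 pairs were tested (adjusted p = 0.0478). The test takes reads as independent and compares these libraries, not conditions. It called 3 of the 4 pairs, beside 50.0% of all pairs tested (12 of 24), so the count of 3 is not far from that of pairs in general.

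The annotation holds 43 miRNA gene pairs whose names are 1 stem with only -1 and -2, and 24 of them, with these 4, had at least 20 reads over both libraries. For 23 of the 24, RefSeq lists a mature sequence common to both loci. Across the 20 other pairs the higher locus held between 52.1% and 100% of the reads, with a median of 79.8%. The higher loci of miR-128 (80.3%) and miR-129 (79.4%) lay next to that median, that of miR-138 (69.4%) below it and that of miR-218 (89.1%) above it. The higher locus was the same in both libraries in each of the 4 and in 17 of the 20 others. The median shift of the share between the libraries was 3.21 points over all 24 pairs and over the 20 others, and the widest was 68.3 points, in Mir26a. Reads that aligned to several places are missing from these pairs too, so their summed levels rank assigned reads and not the miRNAs themselves. By summed level miR-138 and miR-128 ranked first and second of the 24. The next were Mir219a, with 4236 CPM and 0.124% ± 0.110 at its locus named -1 (SD, n = 2), Mirlet7c with 3274 CPM and 20.8% ± 2.45, and Mir181b with 2107 CPM and 0.933% ± 0.0142. Those 3 leaned to the locus named -2, unlike miR-138 and miR-128.

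**Figure D4:**
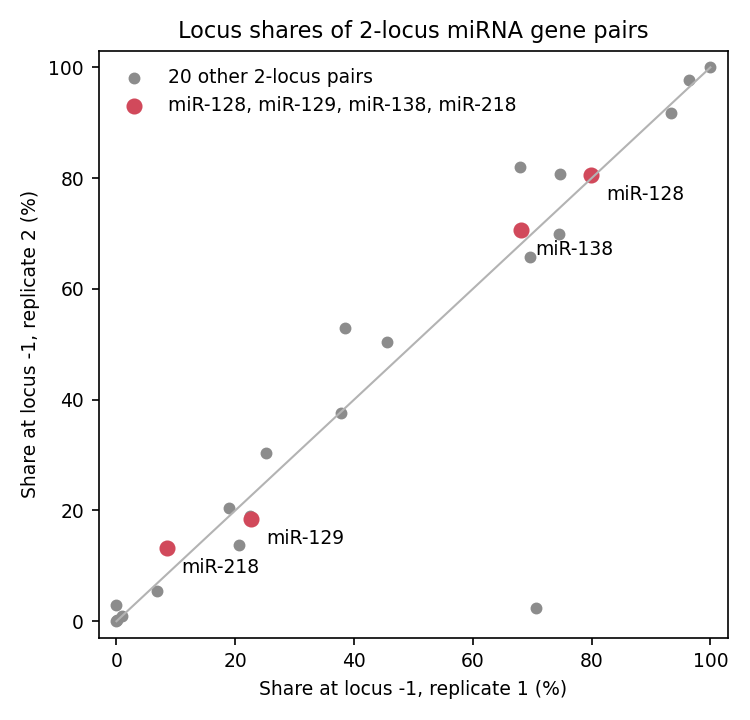
Share of assigned reads at the locus named -1 in replicate 1 (x axis) and replicate 2 (y axis), in percent, for 24 gene pairs with at least 20 reads. Red points are the 4 neuron-enriched miRNAs, grey points the 20 other pairs, and the line marks equal shares. The 4 lie within 4.79 points of equal shares, and the grey point far below the line is Mir26a.

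Between the libraries, 7 of the 8 genes were lower in replicate 2 than in replicate 1. Their log2 ratios of replicate 2 over replicate 1 were -0.60 for Mir138-2, -0.55 for Mir129-1, -0.46 for Mir218-2, -0.42 for Mir138-1, -0.17 for Mir129-2, -0.09 for Mir128-2 and -0.04 for Mir128-1. Mir218-1 had a ratio of 0.26. Expressed as folds of replicate 1 over replicate 2, Mir138-2 differed 1.51-fold (exact 95% interval of the counts 1.48 to 1.55) and Mir128-1 1.03-fold (1.01 to 1.04). In a 2-sided exact binomial test of the counts over the 472 genes whose mean count was 10 or more, the 7 passed at a Benjamini-Hochberg adjusted p below 0.05, which 59.7% of all genes tested did. The adjusted p ran from 6.35e-294 for Mir138-1 to 0.000593 for Mir128-1, and Mir218-1 did not pass (adjusted p = 0.228, exact binomial test). Called higher in replicate 1 were 7 of the 8 genes and 20.3% of all genes tested, and called higher in replicate 2 were none of the 8 and 39.4% of all genes. This background depends on the scaling. It was 26.3% and 32.0% with trimmed mean of M-values (TMM) scaling and 29.4% and 29.2% with DESeq2 size factors, while 7 of the 8 were called higher in replicate 1 under both.

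These differences can be set beside the spread over all genes. The biological coefficient of variation between the libraries, estimated with edgeR after TMM scaling over 472 genes, was 0.321. It corresponds to an SD of a log2 ratio of 0.65, which matches the TMM ratios rather than those of plain CPM. With plain CPM the log2 ratios of all 8 genes lay within that SD of 0, as did those of 77.0% of the 291 genes whose mean count was 100 or more. With TMM scaling 6 of the 8 and 77.3% of the 291 lay within it, and with DESeq2 size factors 6 of the 8 and 76.6%. The genes outside it under both were Mir138-2, at -0.73 with TMM and -0.77 with DESeq2, and Mir129-1, at -0.69 and -0.73. The 8 genes had a median log2 ratio of -0.30, beside 0.17 over all genes tested. TMM scaling shifts every ratio by -0.14 and DESeq2 size factors by -0.18, and no gene of the 8 changed direction under them. Within each of miR-128, miR-129 and miR-138 both loci went the same way, whereas in miR-218 Mir218-2 was lower and Mir218-1 did not pass the test.

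**Figure D5:**
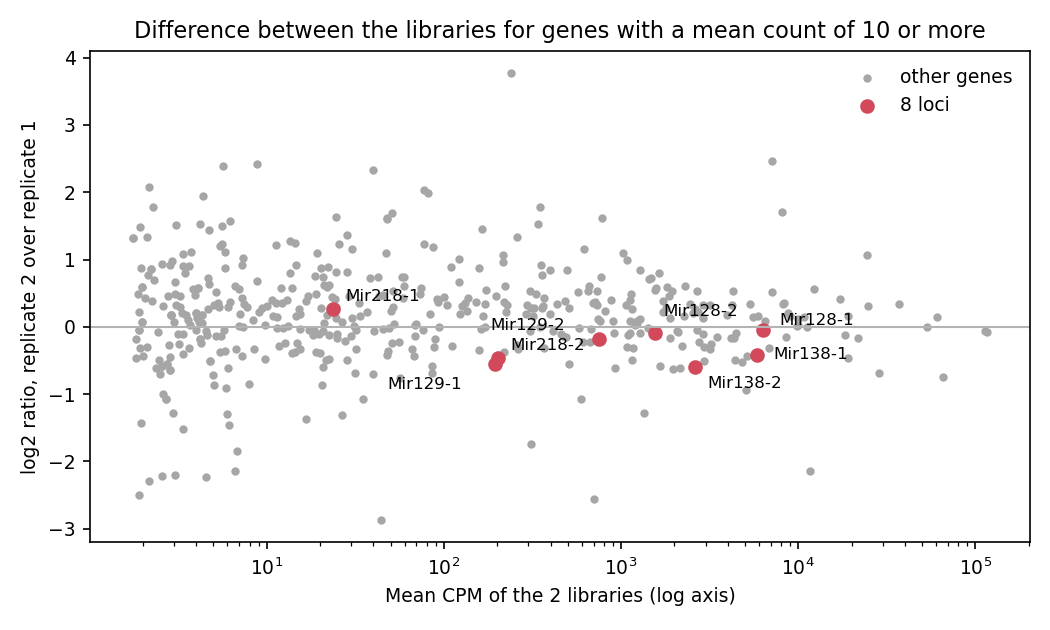
The log2 ratio of replicate 2 over replicate 1 (y axis) against the mean CPM (x axis, log) for the 472 genes whose mean count was 10 or more. Red points are the 8 loci, grey points other genes. The red points lie between -0.60 and 0.26, and those of Mir128-1 and Mir128-2 are nearest to 0.

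Mir129-2 was the one gene of the 8 whose count depended on strand. A miRNA gene named Mir129b is annotated on the opposite strand, on chromosome 2 from 94241378 to 94241442, and its 65 bases lie within Mir129-2. On its own strand Mir129-2 had 4100 and 4116 counts, and Mir129b had 3 and 6. In the count column that ignores strand, Mir129-2 was left with 9 and 18 counts and Mir129b with 0 in both. The counts that dropped out, 4091 and 4098, are those that stood in the other-strand column of Mir129b, and reads over more than 1 gene are held in a row of ambiguous reads. The other 7 genes had the same count in both columns and no read on the other strand. In that column Mir129-1 would hold 99.3% and 98.1% of the assigned reads of miR-129, the reverse of the split on the strand of the gene.

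By level in the 2 libraries, the gene nearest to each locus, by Euclidean distance of log2(CPM + 1) among detected genes, was Mir221 for Mir128-1 (distance 0.10) and Mir431 for Mir128-2 (0.18). Mir26b was nearest to Mir138-1 (0.26) and Mir874 to Mir138-2 (0.26). Mir28a was nearest to Mir129-2 (0.19), Mir375 to both Mir129-1 (0.28) and Mir218-2 (0.19), and Mir200c to Mir218-1 (0.08). Over 2 libraries this describes levels only.

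A list of 17 other neuron-enriched miRNA genes gives the surroundings of the 8, and 14 of them were detected. Of these 14, 2 were higher in replicate 1, 7 were higher in replicate 2 and 5 did not pass the exact binomial test, beside 20.3% higher in replicate 1 and 39.4% higher in replicate 2 over all genes tested, so its counts lie near the background. The median log2 ratio of the list was 0.13 beside 0.17 over all genes tested, and it turned to -0.0065 with TMM scaling and -0.045 with DESeq2 size factors. Its highest genes were Mir132, which neuronal activity induces, at 14669 and 19562 CPM, Mir137 at 3516 and 5087 CPM, and Mir383 at 1609 and 1960 CPM. Of these 3, only Mir132 exceeded each of the 8 loci in both libraries. The difference between the 2 lists was not tested.

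Marker lists of cell types are given by their summed level in replicate 1 and replicate 2 and by the calls of their members, to be read beside 20.3% of all genes called higher in replicate 1 and 39.4% called higher in replicate 2. Most of each sum came from 1 or 2 abundant genes, and in 6 of the 8 lists the members went both ways. The 9 neuron markers, with 6 detected, summed to 18802 and 25183 CPM. Mir132 and Mir137 were higher in replicate 2, Mir212 and Mir9-3 were higher in replicate 1 and 2 did not pass, with a median log2 ratio of -0.19. Each of the 3 genes of miR-124, a defining miRNA of neurons, was near 0 (Mir124a-1 at 3.09 and 2.04 CPM, Mir124a-2 and Mir124a-3 below 10 counts in both). Reads that aligned to several places, 43.6% and 43.2% of all reads, are missing from these loci too, so their counts do not give the level of miR-124 itself.

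Of 4 oligodendrocyte markers 2 were detected, with a sum of 5250 and 6676 CPM and Mir219b at 0, and the 3 tested were higher in replicate 2. The 5 astroglia-associated markers, all detected, summed to 33754 and 25642 CPM. Mir23a and Mir23b were higher in replicate 1, whereas Mir27a, Mir27b and Mir29a were higher in replicate 2, with a median log2 ratio of 0.17. The 4 vessel markers, with 3 detected and Mir126b at 0, summed to 9313 and 8794 CPM, with 2 higher in replicate 1 and 1 higher in replicate 2. The 5 microglia and leukocyte markers summed to 1742 and 1695 CPM, with 2 higher in replicate 1 and 1 in replicate 2. The 4 choroid plexus markers summed to 1351 and 1097 CPM, with 2 higher in replicate 1, 1 in replicate 2 and a median log2 ratio of 0.06. The 3 red blood cell markers summed to 41.9 and 56.9 CPM, with 2 higher in replicate 2. Of 5 genes of the Hox clusters, markers of hindbrain and spinal cord where miR-218 is high in motor neurons, 3 were detected, with 49.6 and 47.2 CPM in sum and Mir196a-1 at 0. Of the 4 tested, 2 were higher in replicate 1 and 1 in replicate 2. These calls depend on the scaling. With TMM scaling 4 of the 5 microglia and leukocyte markers were higher in replicate 1 and no vessel marker was higher in replicate 2. Of the 3 red blood cell markers 1 was then higher in replicate 2, as Mir144 no longer passed (adjusted p = 0.099, exact binomial test). With DESeq2 size factors the same held and Mir29a no longer passed. There the vessel marker Mir126a turned from called higher in replicate 2 (log2 ratio 0.14 with plain CPM) to called higher in replicate 1 (-0.033). In bulk tissue, fewer cells of a type and less RNA per cell cannot be told apart. The part of cell makeup in the differences of the 8 genes was not tested.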

How the data were processed

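Per the labels, microRNA sequencing libraries were made from total RNA. The deposited tables hold raw read counts for every miRNA gene, 1 table per library. The genome build is mm10 and the annotation GENCODE M21, per the deposited text files. The aligner is not given in the sources used here, and neither is the counter. The counts on the strand of the gene were used, and the 4 rows that name no gene were left out of library sizes. Reads aligned to several places were 43.6% of all reads in replicate 1 and 43.2% in replicate 2, unmapped reads 14.1% and 15.5%, and reads on no feature 5.04% and 4.59%. All 2202 identifiers matched GENCODE M21, and the 8 hairpins matched RefSeq in coordinates and sequence. Sequences were searched in the annotated miRNA genes, and a genome was not used here. The mature sequences were also searched in the GENCODE M21 transcripts of other genes. Matches there fell only in the exonic hosts Gm3294, Gm47135 and C78859.

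CPM, exact intervals, Fisher and binomial tests were computed with scipy 1.17.1, and dispersion and scaling with edgeR 4.0.16 and DESeq2 1.42.0. The Fisher and binomial tests were checked on simulated counts with sampling error only. Such a check cannot show how they behave under the wider spread between these libraries. With 1 group a quasi-likelihood test has no coefficient to test. The genes and lists were chosen with earlier results of these data known. Named are the 8 genes, their hosts and the nearest gene to each outside the 8. The 3 highest genes of the neuron-enriched list, the 3 highest other pairs and the markers are also named. Mir129b, Mir26a and Mir670 were named after their values were seen. Alternatives covered scaling, denominator, strand column, count minimum, pseudocount, window length and each library alone.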

Additional observations from a re-analysis of the deposited data

Results flagged for a closer look

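Reads on the other strand of Mir129-2, a column that no comparison used, numbered 6 in replicate 2, above the 3 counts that a count of 0 allows, and 3 in replicate 1. They equal the counts of Mir129b, the gene annotated there on the opposite strand. Reads aligned to several places, which stand outside the gene counts, numbered 6059074 in replicate 1 and 6908203 in replicate 2. The tables do not split them by gene, so the part of miR-128, miR-129, miR-138 and miR-218 in them was not tested. No group had the 4 samples needed to look for a sample far from the others.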

How the results depend on the processing

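Counted without regard to strand, miR-129 reversed in the share of its locus named -1, from 20.6% to 98.7%, and the log2 ratio of Mir129-2 reversed from -0.17 to 0.79 (adjusted p = 0.261, exact binomial test). Its level there was 2.56 CPM, because the reads over both Mir129-2 and Mir129b drop out. In that column 4 of the 8 genes kept their place in the order by level. The levels of Mir128-1 and Mir128-2 rose there by more than their SD, to 6711 and 1650 CPM. With a minimum of 100 counts per pair, the shift of miR-128 of 0.581 points passed the Fisher exact test (adjusted p = 0.0478), since fewer pairs were tested. The number of windows that occur in the partner locus moved with their length, by construction. With 20 bases it was 4 for miR-128, 9 for miR-129, 5 for miR-138 and 3 for miR-218, and with 24 bases 0, 3, 1 and 0. With the reads aligned to several places added to the denominator, all 8 levels fell by more than their SD, for example to 2897 CPM for Mir128-1. The other alternatives left the locus shares, the called pairs and the called genes on their side of the threshold or within 1.5 times of the count. The split of called genes into higher in replicate 1 and in replicate 2 was 96 and 186, with TMM scaling 124 and 151, and with DESeq2 size factors 139 and 138. In comparisons chosen after seeing the data, the median log2 ratio of the neuron-enriched list reversed to -0.0065 with TMM scaling and -0.045 with DESeq2 size factors, that of the choroid plexus list to -0.076 and -0.11, and that of the astroglia-associated list to -0.0046 with DESeq2 size factors. The number of the 8 genes within 1 SD of 0 went from 8 to 6 under both. The tests need both libraries, so they have no value with 1 left out. No paired analysis was possible because there is 1 group. Depth limits Mir218-1 most, at 112 and 152 counts.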

Other observations

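The lincRNA Mir670hg, whose intron holds Mir129-2, is named as the host gene of another miRNA, Mir670. Mir670 had 131 and 105 counts in replicates 1 and 2, or 25.3 and 17.9 CPM, against 791 and 701 CPM for Mir129-2. Both were lower in replicate 2, with a log2 ratio of -0.50 for Mir670 (adjusted p = 0.0162, exact binomial test over 472 genes) and of -0.17 for Mir129-2. Of the 11 mature sequences listed for the 8 genes, the seed of miR-218-5p recurs in miR-7002-3p and that of miR-218-1-3p in miR-496b. The seeds of miR-128-3p, miR-129-5p and miR-138-5p occur in no other mature sequence of the RefSeq table, which is not complete.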
